A study of Mus musculus with 10 samples.

Results

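Glandular kallikreins are secreted serine proteases encoded side by side on mouse chromosome 7, and 10 of their genes are described here: Klk1, Klk1b1, Klk1b3, Klk1b4, Klk1b5, Klk1b8, Klk1b9, Klk1b11, Klk1b22 and Klk1b26. They were taken from the deposited transcript table by gene name, with counts summed by name. Each name held 1 transcript, so the 10 genes were 10 of 92214 transcripts and 10 of 34162 gene names. The genes were chosen by their levels in these same libraries, which earlier work on the table had shown to be high in metastatic c-Myc-high cells. Those levels are thus given below as a description, and no test of the members is read as a result.

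RNA was sequenced from 10 libraries of melanoma cells of mice with a C57BL/6:SV129 background. Cells were sorted by flow cytometry from fresh tumours into a GFP-positive fraction, labelled c-Myc-high, and a GFP-negative fraction, labelled c-Myc-low. Primary tumours of the skin gave 2 libraries per fraction, and lymph node metastases gave 3 per fraction. The labels name no treatment, age, sex, transgene or driver allele, and the replicates' animals are not stated. P-values thus measure the spread between these samples, in which animal and technical differences cannot be separated. Y-linked and Xist levels, given below, differed between replicates of some groups, so not all replicates were technical repeats of the same sample.

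Tissue kallikrein, the product of Klk1, cuts kininogens and releases kinins, small peptides that dilate vessels. In rodents the family expanded by tandem duplication, and most of its members are known from the granular convoluted ducts of the submandibular salivary gland. There the Klk1b9, Klk1b22 and Klk1b26 products are known as epidermal growth factor-binding proteins. Klk1b26 is also known for processing prorenin.

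The 10 genes lie on the plus strand of chromosome 7 (GRCm38, GENCODE M21) between 43950664 and 44229618, a span of 278955 bases that holds 38 annotated genes, 23 of them pseudogenes. Klk1 is at the far end, at chr7:44225360-44229618, next to Klk1b5 at chr7:44215945-44220703, Klk1b4 at chr7:44207435-44211754 and Klk1b3 at chr7:44198191-44202352. Klk1b9 lies further off, at chr7:43976061-43980376. The span also holds 4 further protein-coding glandular kallikreins, Klk1b16, Klk1b21, Klk1b24 and Klk1b27.

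How far the members can be told apart by sequence bears on every value below, so 2 stretches of 60 coding bases are shown, from GENCODE M21 transcripts on GRCm38, plus strand, with capitals where a base differs from Klk1. The first is the stretch with the fewest differences, in exon 3 of 5, at chr7:44228741-44228800 in Klk1, chr7:44210868-44210927 in Klk1b4 and chr7:43979493-43979552 in Klk1b9. Klk1b5 and Klk1b3 have the same 60 bases as Klk1 there.
Klk1: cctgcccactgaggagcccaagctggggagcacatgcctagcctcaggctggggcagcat
Klk1b4: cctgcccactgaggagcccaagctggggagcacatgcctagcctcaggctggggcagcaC
Klk1b9: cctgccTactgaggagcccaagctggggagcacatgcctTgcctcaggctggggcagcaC

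The second is the stretch with the most differences, in exon 5 of 5, at chr7:44229475-44229534 in Klk1, chr7:44220560-44220619 in Klk1b5, chr7:44211611-44211670 in Klk1b4, chr7:44202211-44202270 in Klk1b3 and chr7:43980234-43980293 in Klk1b9. Klk1b5 differed from Klk1 at 8 of these bases, Klk1b4 and Klk1b3 at 19 and Klk1b9 at 18.
Klk1: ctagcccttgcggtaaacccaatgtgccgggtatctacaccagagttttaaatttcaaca
Klk1b5: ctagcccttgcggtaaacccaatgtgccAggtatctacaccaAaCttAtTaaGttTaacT
Klk1b4: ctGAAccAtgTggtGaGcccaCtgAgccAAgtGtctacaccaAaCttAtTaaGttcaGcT
Klk1b3: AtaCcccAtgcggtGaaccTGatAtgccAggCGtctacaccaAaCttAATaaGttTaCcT
Klk1b9: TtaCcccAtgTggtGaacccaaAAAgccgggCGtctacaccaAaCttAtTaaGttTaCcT

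Over whole coding sequences the 45 pairs of members shared 81.4% to 95.1% of aligned bases, with a median of 86.0%. Klk1 and Klk1b5 were the closest pair at 95.1%, followed by Klk1b1 and Klk1b9 at 93.1% and Klk1b8 and Klk1b26 at 91.4%. Among 55 transcripts of 37 kallikrein genes, 71.6% of the 50-base windows of Klk1 were found in no other gene, and 18.8% were also in Klk1b5. The unique share was higher in the other members, up to 87.2% in Klk1b11, and windows of 100 bases were unique in 93.9% (Klk1) to 100% of cases. Klk1b5 and Klk1b26 have longer transcripts in this annotation than the lengths implied by the deposited RPKM, which are reads per transcript length and library total (1.46 and 1.45 times the Klk1 length in GENCODE M21, 0.984 and 0.997 times in the table), so their unique shares refer to other transcripts than the authors counted. For the 7 other Klk1b members the ratio to Klk1 also differed (0.909 in GENCODE M21 and 0.990 in the table for Klk1b1, for example). Relative to one another, these 7 had nearly the same lengths in both. The unique share of Klk1 therefore carries the same limit. For these 7 members the ratios show no such difference, although they give no absolute lengths. The read length is not given in the sources used here.

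**Figure D1:**
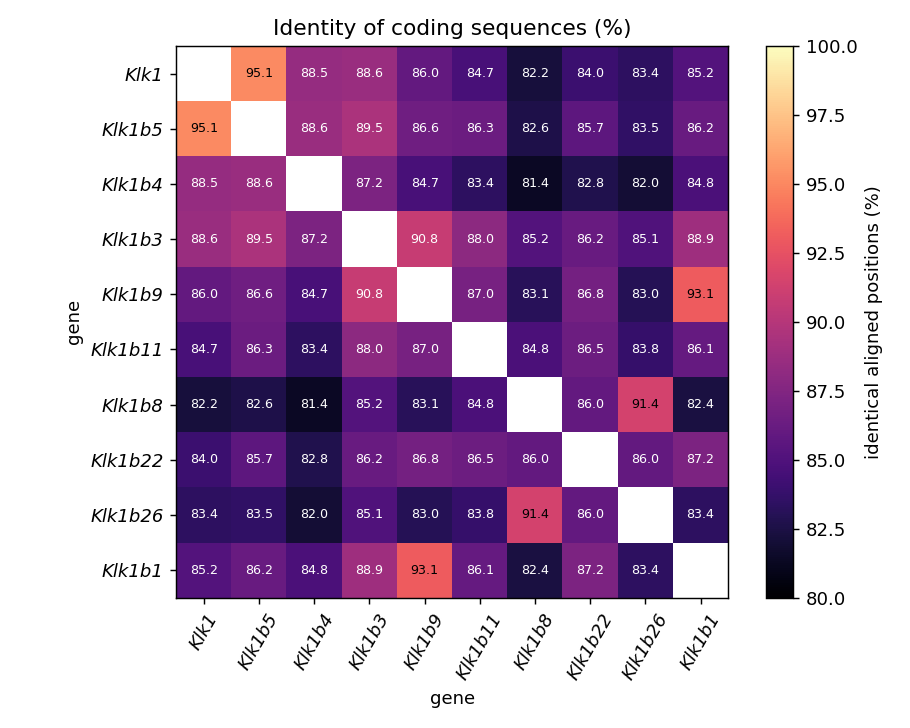
Percentage of identical aligned bases between the coding sequences of the 10 glandular kallikreins, each square being a pair of genes. Klk1 and Klk1b5 share 95.1%, and the lowest pair shares 81.4%.

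In both primary c-Myc-low libraries Klk1 and Klk1b5 had the same estimated count, 0.784 in replicate 1 and 0.828 in replicate 2. In metastatic c-Myc-low replicate 2, Klk1b3, Klk1b9 and Klk1b21 each had 0.5. Values below 1 count are fractions of a read, and where they are given below nothing is read from them for single members. The first part of Klk1 also overlaps Gm10109, a transcribed pseudogene on the other strand, which had 52.6, 0.07 and 2.73 CPM (counts scaled to 1e+06 per library) in metastatic c-Myc-high replicates 1, 2 and 3. Whether counting used the strand is not given in the sources used here, so reads of the overlap cannot be assigned to either.

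The members were high in the same libraries, so the bases before their starts are shown too, from RefSeq (GRCm38.p6, plus strand). The stretches are chr7:44216414-44216473 for Klk1b5, chr7:44207373-44207432 for Klk1b4, chr7:44198131-44198190 for Klk1b3, chr7:43976001-43976060 for Klk1b9 and chr7:44225300-44225359 for Klk1, with TTTAAA in capitals, which reads the same on both strands.
Klk1b5: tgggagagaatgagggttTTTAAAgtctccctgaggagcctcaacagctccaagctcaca
Klk1b4: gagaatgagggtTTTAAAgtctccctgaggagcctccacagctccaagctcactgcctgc
Klk1b3: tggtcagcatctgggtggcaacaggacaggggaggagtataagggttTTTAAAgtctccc
Klk1b9: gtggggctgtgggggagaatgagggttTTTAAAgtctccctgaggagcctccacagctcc
Klk1: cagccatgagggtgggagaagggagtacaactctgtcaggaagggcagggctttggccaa

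All 10 members had a RefSeq window of 300 bases (250 before the start and 50 after). TTTAAA was in the windows of 9 of 10 members, beginning 13 to 48 bases before the annotated start, and in 13.2% of all 32851 windows (4324). It was not in the Klk1 window. That window, cut at 50 bases after the annotated start, stops short of the place where TTTAAA follows a shared stretch in Klk1b5. The bases beyond it were not searched. The Klk1 window ends, at chr7:44225380-44225409, in 30 bases that hold GAGAATGAGG, the 10 bases that end 3 bases before TTTAAA in Klk1b5.
Klk1 window end: aggggtggggctgtggggGAGAATGAGGgt

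That stretch, searched on both strands, was in 8 of 10 members' windows and in 0.149% of all windows (49). It was taken from the bases of these tandem duplicates themselves, so nothing is read from the count. Any link of these sequences to the levels was not tested.

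Library totals ran from 1603012 estimated counts (primary c-Myc-high replicate 2) to 6844328 (primary c-Myc-low replicate 1), so a floor of 3 counts corresponded to 0.438 to 1.87 CPM. Myc itself had 818 and 69.5 CPM in the primary c-Myc-high, 196 and 332 in the primary c-Myc-low, 124 to 303 in the metastatic c-Myc-high and 132 to 363 in the metastatic c-Myc-low libraries, so the labelled classes overlapped. Summed over 8 melanocyte markers, levels were 388 to 2237 CPM in primary c-Myc-high, 789 to 1252 in primary c-Myc-low, 3200 to 11539 in metastatic c-Myc-high and 7736 to 26320 in metastatic c-Myc-low libraries. Keratinocyte markers summed to 18324 to 56486 CPM in the primary and 31.2 to 243 CPM in the metastatic libraries. Y-linked genes summed to 133 to 167 CPM, with Xist at 8.92 to 12.1 CPM, in primary c-Myc-high replicate 2, metastatic c-Myc-high replicate 2 and metastatic c-Myc-low replicate 3. In the other 7 libraries the Y-linked sum was 0.792 to 14.9 CPM with Xist at 1404 to 4879 CPM. Libraries of opposite pattern thus stood within 3 of the 4 groups, including the 3 metastatic c-Myc-high libraries on which the kallikrein values rest.

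The 10 glandular kallikreins together reached 8463 CPM in metastatic c-Myc-high replicate 1, 186 CPM in replicate 2 and 5998 CPM in replicate 3. These sums were 0.846%, 0.0186% and 0.600% of all counts in those libraries. Primary c-Myc-high cells had 1.90 and 53.2 CPM, primary c-Myc-low cells 0.278 and 0.600 CPM, and metastatic c-Myc-low cells 1.53, 3.50 and 1.28 CPM. The metastatic c-Myc-high libraries thus lay above the 7 others, but they spanned a 45.5-fold range among themselves, and their mean of 4882 CPM had an SD of 4250 (n = 3). Replicate 2, the lowest of the 3, was 53.2 times the highest metastatic c-Myc-low library and 3.50 times the higher primary c-Myc-high library. In bulk libraries, fewer cells that make a transcript and less transcript per cell cannot be told apart.

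**Figure D2:**
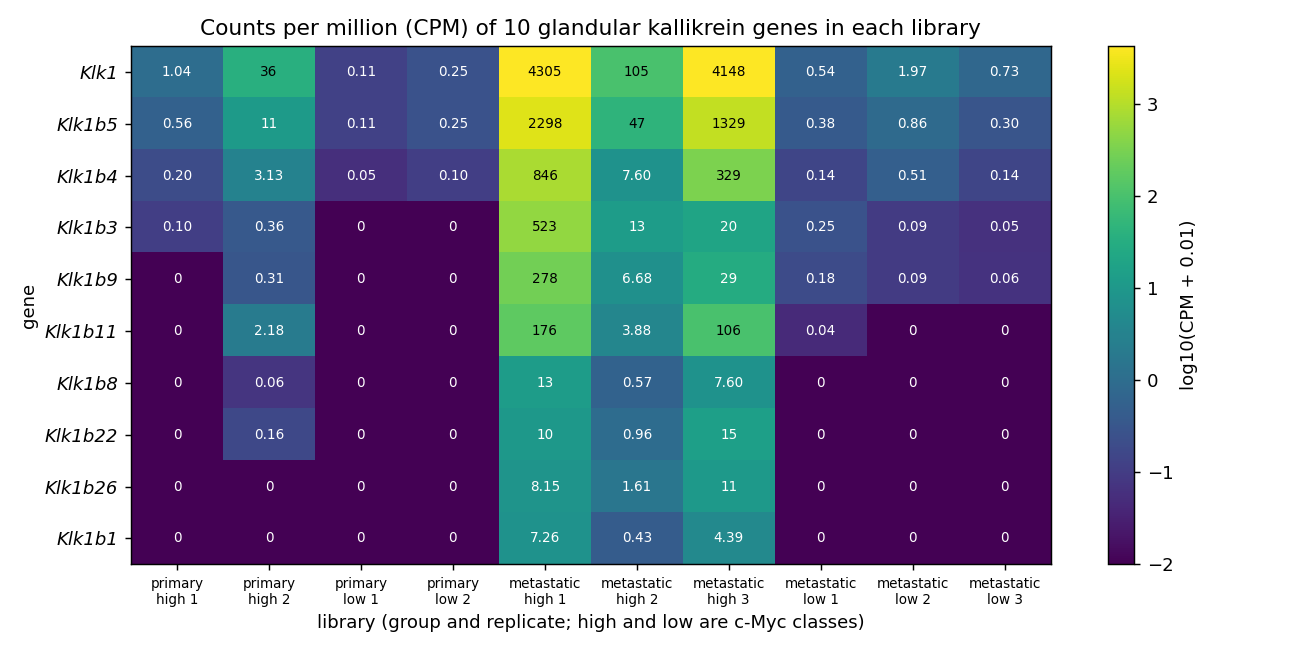
CPM of the 10 glandular kallikreins (vertical axis) in each of the 10 libraries (horizontal axis), with colour on a log10 scale after adding 0.01. Metastatic c-Myc-high replicates 1 and 3 are the 2 highest libraries for each gene, followed by replicate 2 (on the RPKM scale replicate 2 is above replicate 3 for Klk1b3), and most of the values in c-Myc-low libraries are 0 or below 1 CPM.

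Klk1, tissue kallikrein itself, had 4305, 105 and 4148 CPM in metastatic c-Myc-high replicates 1 to 3. It had 1.04 and 35.5 CPM in primary c-Myc-high, 0.11 and 0.25 CPM in primary c-Myc-low, and 0.54, 1.97 and 0.73 CPM in metastatic c-Myc-low libraries. Replicates 1 and 3 of the metastatic c-Myc-high group were close to each other and about 40 times replicate 2 (41.0 and 39.5 times). Primary c-Myc-high replicate 2 was the next highest library, with 57.0 counts behind its value. The c-Myc-low libraries rested on 0.784 to 11.5 counts of Klk1.

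Klk1b5, the nearest neighbour and closest relative of Klk1, had 2298, 46.8 and 1329 CPM in the metastatic c-Myc-high libraries. It had 0.56 and 11.5 CPM in primary c-Myc-high, 0.11 and 0.25 CPM in primary c-Myc-low, and 0.38, 0.86 and 0.30 CPM in metastatic c-Myc-low libraries. Its ratio to Klk1 stayed between 0.320 and 0.534 in the 3 metastatic c-Myc-high libraries and was 0.323 in primary c-Myc-high replicate 2.

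Klk1b4, which lies next to Klk1b5, had 846, 7.60 and 329 CPM in the metastatic c-Myc-high libraries. The other groups had 0.20 and 3.13 CPM (primary c-Myc-high), 0.05 and 0.10 CPM (primary c-Myc-low) and 0.14, 0.51 and 0.14 CPM (metastatic c-Myc-low). Among the members it had the widest gap between replicates 1 and 2, 111 times, and it was 43.3 times higher in replicate 3 than in replicate 2.

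Klk1b3, the next gene along the chromosome, had 523, 12.8 and 19.9 CPM in metastatic c-Myc-high replicates 1 to 3. It had 0.10 and 0.36 CPM in primary c-Myc-high libraries, 0 in both primary c-Myc-low libraries, and 0.25, 0.09 and 0.05 CPM in metastatic c-Myc-low libraries. Here replicate 3 did not go with replicate 1 as it did for Klk1: replicate 1 was 40.8 times replicate 2, as for Klk1, but replicate 3 was 1.55 times replicate 2. On the RPKM scale, which divides by another library total, replicates 2 and 3 changed places, with 2.89 and 2.46 RPKM.

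Klk1b9, an epidermal growth factor-binding protein, went the same way, with 278, 6.68 and 29.1 CPM in the metastatic c-Myc-high libraries. It had 0 and 0.31 CPM in primary c-Myc-high, 0 in both primary c-Myc-low, and 0.18, 0.09 and 0.06 CPM in metastatic c-Myc-low libraries. Replicate 1 was 41.6 times and replicate 3 was 4.35 times replicate 2. Klk1b11, by contrast, followed Klk1, with 176, 3.88 and 106 CPM in the metastatic c-Myc-high libraries, 0 and 2.18 CPM in primary c-Myc-high libraries, and 0.04 CPM or 0 in the c-Myc-low libraries.

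The 4 remaining members were rare. Klk1b8 had 12.9, 0.57 and 7.60 CPM in the metastatic c-Myc-high libraries, Klk1b22 had 10.1, 0.96 and 14.8 CPM, Klk1b26 had 8.15, 1.61 and 10.8 CPM, and Klk1b1 had 7.26, 0.43 and 4.39 CPM. The replicate 2 values of Klk1b8 and Klk1b1 were below the floor of 3 counts in that library. Outside this group, these 4 genes had at most 0.16 CPM (Klk1b22 in primary c-Myc-high replicate 2) and were at 0 in the 5 c-Myc-low libraries.

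In CPM, 10 of 10 members were higher in all 3 metastatic c-Myc-high libraries than in the 7 others, as were 64 of the 16805 genes tested (0.381%). With TMM library sizes, which rescale each library by the bulk of its genes, this held for 9 of 10, the exception being Klk1b11 (0.762% of all genes tested), and on the RPKM scale for 10 of 10 (0.292%). The members were chosen by these levels, so nothing is read from the counts. In 8 of 10 members replicate 1 was above replicate 3, the exceptions being Klk1b22 and Klk1b26, while on the RPKM scale this was so for 10 of 10 and with TMM library sizes for 7 of 10. In the metastatic c-Myc-low libraries 4 members were at 0 throughout, and in the primary c-Myc-low libraries 7 were.

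Per transcript length, the order in metastatic c-Myc-high replicate 1 was Klk1 at 841 RPKM, Klk1b5 at 456, Klk1b4 at 172, Klk1b3 at 101, Klk1b9 at 54.6 and Klk1b11 at 35.0 RPKM. The 4 rare members followed at 1.43 to 2.57 RPKM. In replicate 2 Klk1 again led at 24.0 RPKM before Klk1b5 at 10.9, but Klk1b3 at 2.89 stood above Klk1b4 at 1.82. In replicate 3 the order was Klk1 at 519, Klk1b5 at 169, Klk1b4 at 43.0, Klk1b11 at 13.4, Klk1b9 at 3.66 and Klk1b3 at 2.46 RPKM. Klk1, Klk1b5 and the group of 4 rare members thus kept their places in the 3 libraries, whereas Klk1b3 moved between the third and the sixth place.

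The make-up of the kallikrein RNA separates the libraries further. Klk1b3 supplied 6.18% of the members' counts in metastatic c-Myc-high replicate 1 (95% Wilson interval 5.94% to 6.42%) and 6.88% in replicate 2 (5.28% to 8.78%), but 0.33% in replicate 3 (0.26% to 0.44%). Klk1b9 supplied 3.28% (3.11% to 3.47%), 3.59% (2.52% to 5.12%) and 0.48% (0.39% to 0.61%). The intervals of replicates 1 and 2 overlap for both genes, and those of replicate 3 lie apart from them. They come from counts rounded to whole numbers and cover counting error alone.

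Klk1 took the largest share in each of these libraries, 50.9% (50.4% to 51.4%), 56.3% (52.9% to 59.7%) and 69.2% (68.4% to 69.9%) in replicates 1 to 3. Klk1b5 held 27.1%, 25.1% and 22.2%, and Klk1b4 9.99%, 4.08% and 5.49%. Klk1b4 therefore did not follow Klk1b3: its share in replicate 2 was below that in replicate 3, although the intervals of those 2 libraries overlap (2.93% to 5.69% and 5.14% to 5.85%). In primary c-Myc-high replicate 2, whose 10 genes had 85.3 counts in all, Klk1 held 66.8% (56.5% to 76.1%), Klk1b5 21.5% (13.8% to 31.0%) and Klk1b3 0.68% (0.21% to 6.37%). At that depth the Klk1b3 interval covers the shares of both metastatic c-Myc-high replicates 1 and 3.

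**Figure D3:**
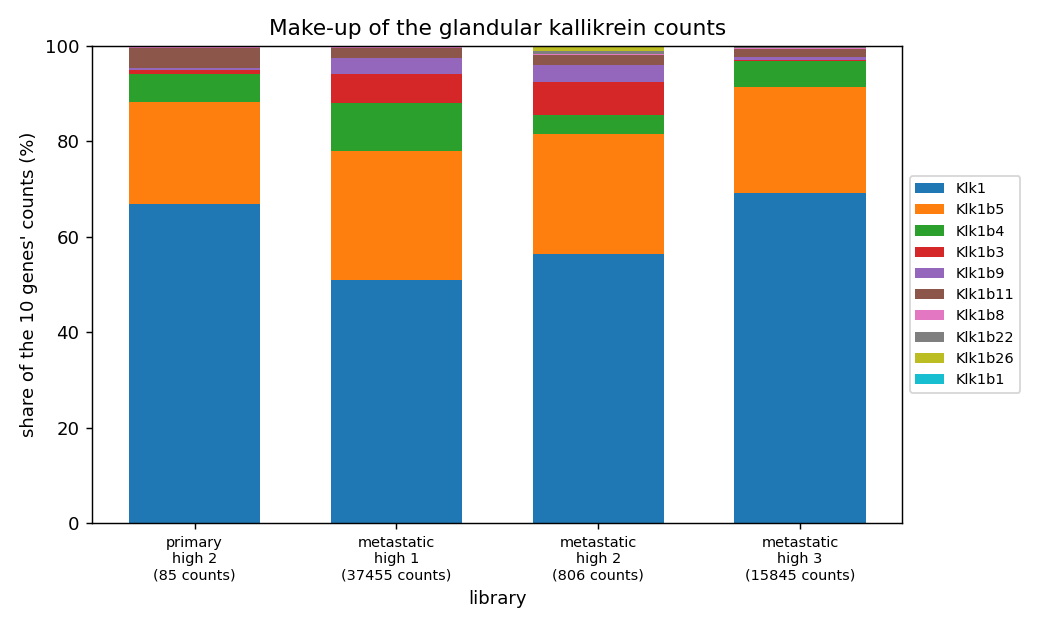
Share of the 10 genes' summed counts (vertical axis, percent) that each gene supplied in the 4 libraries with more than 50 such counts. Klk1b3 and Klk1b9 fill 6.18% and 3.28% of the bar of metastatic c-Myc-high replicate 1 and 0.33% and 0.48% of that of replicate 3.

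As a ratio to Klk1 in the metastatic c-Myc-high group, Klk1b3 stood at 0.121 in replicate 1, 0.122 in replicate 2 and 0.0048 in replicate 3, and at 0.0102 in primary c-Myc-high replicate 2. Klk1b9 stood at 0.0645, 0.0637, 0.0070 and 0.0088 in the same order. The values of primary c-Myc-high replicate 2 rested on 0.583 counts of Klk1b3 and 0.4995 of Klk1b9. These are fractions of a read, so nothing is read from them. The ratios in metastatic c-Myc-high replicates 1 and 2 were thus nearly equal although their kallikrein levels differed by 45.5 times. Klk1b3 and Klk1b9, the pair that dropped in replicate 3, share 90.8% of coding bases, and reads divided between them or with other copies were not separable from the table.

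Protein-coding glandular kallikreins outside the set also had their highest values in metastatic c-Myc-high libraries. Klk1b21 had 338, 5.91 and 193 CPM in the metastatic c-Myc-high libraries and Klk1b24 had 35.5, 1.09 and 15.6 CPM. Klk1b16 had 7.18, 0.64 and 5.14 CPM. Klk1b27 had 35.4, 1.35 and 77.5 CPM, so that replicate 3 was its highest library and replicate 2 was below primary c-Myc-high replicate 2. In primary c-Myc-high replicate 2 Klk1b27 had 1.82, Klk1b21 1.39 and Klk1b24 0.13 CPM, and no c-Myc-low library was above 0.09 CPM for any of these 4 genes. The pseudogene Klk1b7-ps had 0.29 CPM in metastatic c-Myc-high replicate 1 and 0.21 CPM in metastatic c-Myc-low replicate 3.

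In edgeR's quasi-likelihood fit over all 16805 genes that passed the filter on low counts, 667 genes (3.97%) differed between the sites in c-Myc-high cells at a Benjamini-Hochberg adjusted p under 0.05, 278 of them (1.65%) higher in metastatic cells. All 10 members passed that filter, and 2 of 10, Klk1b9 and Klk1b5, were among the genes called higher. The members were chosen for high values in these libraries, so nothing is read from that count. It ran from 0 to 5 when 1 library was left out, with 5 without metastatic c-Myc-high replicate 2 and 0 without any of 7 others (primary c-Myc-high replicate 1, both primary c-Myc-low libraries, metastatic c-Myc-high replicate 1 and the 3 metastatic c-Myc-low libraries). DESeq2 called 6. Between the c-Myc classes of metastatic cells edgeR called 0 of all genes (0%), and so 0 of 10 members, while 807 genes had an unadjusted p under 0.05. Without metastatic c-Myc-high replicate 2 edgeR called 33 genes there, and DESeq2 on all libraries called 86. Members were among both sets, and nothing is read from that, since their values chose them. In metastatic against primary c-Myc-low cells edgeR called 63 genes higher (0.375%), none of them a member, and between the primary classes it called 0 genes (0%).

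Kallikrein-related peptidases outside the glandular cluster, such as Klk5 and Klk7, which cut desmosomal proteins in the shedding of the outer epidermis, went the other way. Of 12 such genes listed, 8 were tested, and 4 of 8 were called lower and 0 higher in metastatic c-Myc-high cells, where 2.31% of all genes were called lower. The same 4 genes, Klk5, Klk7, Klk10 and Klk11, were called lower in metastatic c-Myc-low cells, where 1.74% of all genes were. The median log2 change was -7.84 and -8.39 (0.38 and 0.10 over all genes). With genes at 0 set to their bound it was -7.84 over the 6 genes of the 8 that were above the floor, and -6.25 over 8.

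Klk5 had 40.1 and 51.7 CPM in primary c-Myc-high, 23.3 and 23.4 CPM in primary c-Myc-low, and 0 in the 6 metastatic libraries. With a floor of 3 counts over each metastatic group it was at least 163-fold lower in the c-Myc-high class (edgeR, adjusted p = 0.0113) and at least 129-fold lower in the c-Myc-low class (adjusted p = 0.0138). Klk7 had 22.0 and 154 CPM in primary c-Myc-high, 134 and 89.2 CPM in primary c-Myc-low, and 1 count in each metastatic class. The primary level over pooled counts was 613 times the metastatic one in c-Myc-high cells (exact 95% counting interval 109 to 24262, edgeR adjusted p = 0.00547).

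Klk10 had 239 and 108 CPM in primary c-Myc-high and at most 0.71 CPM in metastatic c-Myc-high libraries, a ratio of 821 (269 to 3827) on 2.88 metastatic counts (edgeR, adjusted p = 0.00389). Klk11 had 60.7 and 40.8 CPM against at most 0.71 CPM, a ratio of 171 (61.6 to 587) on 3.73 counts (adjusted p = 0.00707). In the c-Myc-low class Klk10 had 41.2 and 13.5 CPM in primary and 0.78, 2.15 and 0.21 CPM in metastatic libraries, and its call rested on each library of the class (adjusted p = 0.0419). The number called in that class fell from 4 to 2, Klk7 and Klk11, without any 1 of its 5 libraries, whereas in the c-Myc-high class it was 4 whichever library was left out. Summed keratinocyte markers moved with these genes, as given above, and their part in the result was not tested.

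The 2 kallikrein groups were thus high in different libraries. The summed kallikrein-related peptidases had 207 to 409 CPM in the 4 primary libraries and 0.821 to 8.23 CPM in the 6 metastatic ones. Metastatic c-Myc-high replicate 1, the library richest in glandular kallikreins, had the lowest summed level of the kallikrein-related peptidases.

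**Figure D4:**
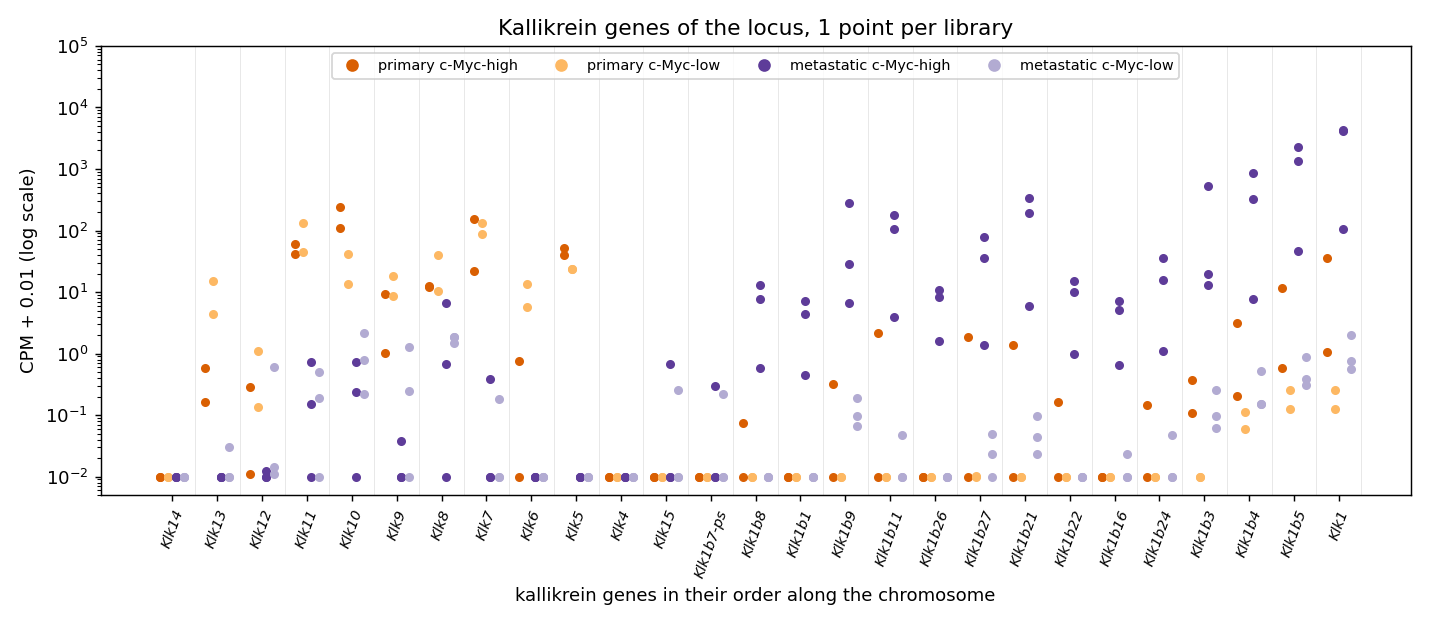
CPM plus 0.01 (log scale) of each kallikrein gene of the locus in every library, 1 point per library, with genes in their order along the chromosome and colours for the 4 groups. For the 10 members the metastatic c-Myc-high points are the 3 highest, and for Klk1b27 primary c-Myc-high replicate 2 (1.82 CPM) lies above metastatic c-Myc-high replicate 2 (1.35 CPM), while from Klk14 to Klk5 the genes with signal have their highest points in primary libraries.

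The partners of the glandular kallikreins were measured from fixed lists. Egf, the ligand bound by the Klk1b9, Klk1b22 and Klk1b26 products, had 29.9, 3.26 and 8.36 CPM in the metastatic c-Myc-high libraries, against 0 to 2.64 CPM in the 7 others. Ren1, the renin gene, had 2.78 CPM in metastatic c-Myc-high replicate 1 and at most 0.005 CPM elsewhere. EdgeR did not call Egf in either comparison of sites (adjusted p = 0.138 in c-Myc-high cells), and Ren1 did not pass the filter on low counts.

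The kinin system, on which tissue kallikrein acts, was nearly silent at its core. The kininogens Kng1 and Kng2 had at most 0.06 CPM in any library, and the kinin receptors Bdkrb1 and Bdkrb2 at most 0.905 and 2.31 CPM. Of 12 listed genes 4 were tested (Ace, Cpm, Mme and Serping1), and edgeR called 0 of them in either comparison of sites.

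Among the growth factor receptors, 1 of 5 tested was called lower in metastatic c-Myc-high cells, where 2.31% of all genes were: Egfr, the receptor for epidermal growth factor, had 235 and 149 CPM in primary and 24.5, 8.26 and 5.72 CPM in metastatic libraries, a log2 change of -4.11 (SE 0.94, edgeR adjusted p = 0.0368). Of the protease-activated receptors, 1 of 3 tested was called lower (2.31% of all genes): F2rl1, which serine proteases switch on, fell by 4.41 on the log2 scale (SE 1.09, adjusted p = 0.0475), from 120 and 109 CPM to 12.8, 4.62 and 1.89 CPM. Neither call was steady, since Egfr passed in 4 and F2rl1 in 1 of 10 fits that left out a library. In the c-Myc-low class neither gene was called. Keratinocyte markers moved with both genes, and their part was not tested.

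Of 5 serine protease inhibitors tested, 2 were called lower in metastatic cells of the c-Myc-high class and 3 in those of the c-Myc-low class, where 2.31% and 1.74% of all genes were called lower, and 0 were called higher. Serpinb5, or maspin, had 936 and 592 CPM in primary and 0.94 to 2.31 CPM in metastatic c-Myc-high libraries, a log2 change of -9.37 (SE 0.88, edgeR adjusted p = 0.00137). Spink5, which inhibits the epidermal kallikreins, had 32.5 and 149 CPM against 0 to 0.24 CPM, a log2 change of -9.13 (SE 1.38, adjusted p = 0.00539). The c-Myc-low class gave both calls again (adjusted p = 0.000897 and 0.0038), and Spint1, an inhibitor of membrane serine proteases, was called with a log2 change of -4.42 (adjusted p = 0.0391), a call lost without any 1 of the 5 libraries of the class. The summed keratinocyte markers given above moved with the inhibitors, and their part in the result was not tested.

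Tfcp2l1, a transcription factor of duct epithelium, had 1101, 3.52 and 384 CPM in the metastatic c-Myc-high libraries and at most 9.11 CPM in the others, so it was high in the 2 libraries richest in kallikreins. It was not called between sites in c-Myc-high cells (edgeR, adjusted p = 0.0861).

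The genes whose profile over the 10 libraries was most like the summed members were ranked by Pearson correlation of log2(CPM + 1) among 10694 genes with a mean of at least 10 CPM. Klk1b21 (r = 0.97) and Klk1b27 (0.95) came first, followed by Crisp3 (0.93), Cyp2f2 (0.92), Crisp1 (0.92), Chia (0.91), Tfcp2l1 (0.91), Pip (0.91), Smr3a (0.90), Amy1 (0.90), Prh1 (0.90) and Dnase1 (0.90). These values describe 10 libraries in which the same 2 libraries are highest for nearly all of these genes, and they share depth and source. By Spearman correlation 7 of these 12 were again among the 12 highest.

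Several salivary secretory genes were abundant in the same 2 libraries. Smr3a, a submandibular secretory protein gene, had 35737 CPM in metastatic c-Myc-high replicate 1, 5.26 in replicate 2 and 12609 in replicate 3, and Bpifa2, the parotid secretory protein gene, had 82883, 12.8 and 23308 CPM. The salivary acinar list, 18 of whose 19 genes were in the table, summed to 191228, 79.6 and 46216 CPM in these 3 libraries. It summed to 65.3 and 422 CPM in primary c-Myc-high, 17.5 and 50.7 CPM in primary c-Myc-low and 96.1 to 1092 CPM in metastatic c-Myc-low libraries, and none of the 18 genes was at 0 throughout. Genes of the list did not all follow that order: Dcpp1, Dcpp2 and Dcpp3 had 369, 254 and 146 CPM in metastatic c-Myc-low replicate 2, above their 17.2, 35.0 and 17.9 CPM in metastatic c-Myc-high replicate 3. The duct list, 7 of whose 11 genes were in the table, summed to 535, 19.8 and 253 CPM in the metastatic c-Myc-high libraries and 4.18 to 70.2 CPM in the others. Both lists moved with the kallikreins in the 2 richest libraries, and their part in the result was not tested.

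Replicate 2 of the metastatic c-Myc-high group differed from these in its balance. Its summed kallikreins were 2.20% of the level in replicate 1, whereas Smr3a was at 0.0147% and Bpifa2 at 0.0155% of replicate 1. The summed members stood at 0.237 and 0.476 per unit of Smr3a in replicates 1 and 3, and at 35.4 in replicate 2. Against Bpifa2 the ratios were 0.102, 14.5 and 0.257 in replicates 1 to 3. Genes of the duct list differed in this proportion. Crisp3, a secretory gene, had 210, 7.67 and 169 CPM, so replicate 2 was at 3.65% of replicate 1, and Krt7, a keratin of simple epithelia, had 176, 8.83 and 17.1 CPM (5.01%). Krt18, another such keratin, had 107, 0 and 58.7 CPM, and Tfcp2l1 of replicate 2 was at 0.319% of replicate 1. Smr3a, Bpifa2 and the summed acinar list of replicate 2 were within the range of the libraries low in kallikreins. Bhlha15, a transcription factor of secretory cells on the acinar list, was not: it had 148, 20.8 and 7.22 CPM in replicates 1 to 3 and at most 14.5 CPM in the 7 other libraries. Over the 14 acinar genes with at least 100 CPM in replicate 1, replicate 2 was at 0% to 14.1% of it, with a median of 0.0216%.

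**Figure D5:**
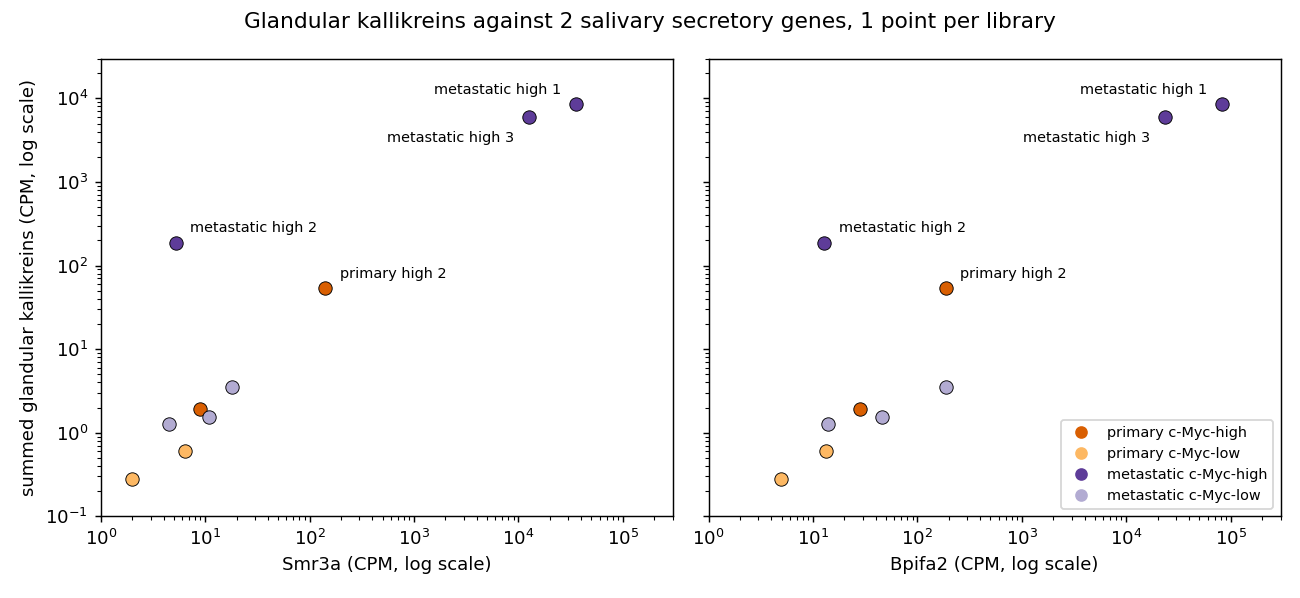
Summed glandular kallikreins (vertical axis, CPM, log scale) against Smr3a (left) and Bpifa2 (right, both CPM, log scale), 1 point per library, coloured by group. Metastatic c-Myc-high replicate 2 has 186 CPM of kallikreins at 5.26 CPM of Smr3a, far above libraries with similar Smr3a.

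Primary c-Myc-high replicate 2 showed the other balance. Its summed kallikreins were 0.887% of the level in metastatic c-Myc-high replicate 3, and Smr3a stood at 1.13%, Bpifa2 at 0.804%, Amy1 at 0.685%, Car6 at 1.18%, Pip at 1.90%, Crisp3 at 1.43% and Tfcp2l1 at 0.998% of that library. Over the 16 genes, kallikreins aside, of the acinar list, the duct list and the most similar genes with at least 100 CPM in metastatic c-Myc-high replicate 3, the share ran from 0% (Lpo, at 0 against 101 CPM) to 2.61% (Cyp2f2), with a median of 1.06%. In the other direction, the keratinocyte genes Sfn and Krt10 had 34637 and 13818 CPM in primary c-Myc-high replicate 2. They had 199 and 22.8 CPM in metastatic c-Myc-high replicate 3, against 2.11 to 6.84 and 3.10 to 4.69 CPM in the 5 other metastatic libraries. The rest of the keratinocyte list was not raised there and lay within or below the range of those 5 libraries. Krt1 and Krt5, for example, had 4776 and 852 CPM in primary c-Myc-high replicate 2, and 8.13 and 2.64 CPM in metastatic c-Myc-high replicate 3. The 5 others had 4.71 to 11.2 and 5.59 to 8.68 CPM. The part of these levels in the kallikrein values of the 2 libraries was not tested.

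Markers of other kallikrein-making tissues were low. Of 10 pancreatic acinar genes, 9 were under the floor of 3 counts in every library, with sums of 0 to 14.1 CPM, and of 7 kidney tubule genes, 5 were under it, with sums of at most 7.25 CPM. The mammary secretory list summed to at most 41.6 CPM, in metastatic c-Myc-low replicate 2. In the metastatic c-Myc-high libraries pan-leukocyte markers summed to 1008, 5354 and 286 CPM in replicates 1 to 3, so they were highest where the kallikreins were lowest among the 3.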

How the data were processed

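The authors deposited 1 table with estimated counts per transcript, which are not scaled between libraries and need not be whole. The table also holds RPKM, which the authors scaled by transcript length and by a library total. Bowtie2, limma and mm10 are named in the submitters' processing notes, without versions. Not given in the sources used here were the counting program, its annotation and any strand setting. RNA was amplified before library preparation, per the labels' protocols.

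Counts were summed by gene name and divided by library totals for CPM. Summed counts were rounded and tested in edgeR 4.0.16 (R 4.3.3) with TMM, filterByExpr and robust quasi-likelihood tests over 4 groups. Of 34162 gene names 16805 were tested, at an adjusted p (Benjamini-Hochberg) under 0.05, and the test was run on simulated data first. The common biological coefficient of variation was 0.876. Replicates differed by more than sampling noise (chi-square per degree of freedom 34.7 to 162). An interaction of site and c-Myc class called 0 of 16805 genes. Coding sequences were aligned with Biopython 1.88.

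The members and gene lists were chosen with earlier results of these data known. Named beyond the members are list genes passing the threshold (at most 4 per list and comparison, by lowest p), Egf, Ren1, the other glandular kallikreins and the 12 most similar genes. Tfcp2l1, Bpifa2, Dcpp1, Dcpp2, Dcpp3, Bhlha15, Lpo, Krt7, Krt18, Car6, Sfn, Krt10, Krt1, Krt5, Gm10109 and the kinin genes were named, and the minimum of 100 CPM for shares between libraries was set, after values were seen. Alternatives were DESeq2 1.42.0 on the counts and limma 3.58.1 on log2 of RPKM plus 0.1 or 1, other scalings and filters, the 2 groups alone, a replicate block and leaving out each library. Some single genes and sequence matches are not reported here.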

Additional observations from a re-analysis of the deposited data

How the results depend on the processing

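Counts of called genes moved with the method and with the libraries used. In metastatic against primary c-Myc-high cells edgeR called 667 genes. The transcript with the highest mean per gene gave 335, DESeq2 3335, no low-count filter 1273, the 2 groups alone 155, and limma 171 on log2(RPKM + 0.1) and 24 on log2(RPKM + 1). Leaving out 1 library gave 299 (without primary c-Myc-low replicate 1) to 1232 (without primary c-Myc-high replicate 2). In the c-Myc-low class 355 genes were called. The highest transcript gave 225, DESeq2 1727, no filter 775, the 2 groups alone 2276, and leaving out 1 library 127 (without metastatic c-Myc-low replicate 2) to 572 (without metastatic c-Myc-high replicate 3). Between metastatic classes 0 genes were called, with 86 by DESeq2, 8 by limma on log2(RPKM + 1) and 0 to 33 when 1 library was left out. Between primary classes 0 genes were called, with 1953 at an unadjusted p under 0.05, 383 by DESeq2, 2 without a filter, 57 and 71 by limma at the smaller and larger pseudocount, and 0 whichever library was left out. The cause of these differences was not tested.

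Replicate numbers did not pair the samples: of 13 same-numbered pairs, 3 had a correlation of deviations over 0.1 (range -0.29 to 0.15). With the replicate number as a block, edgeR called 150 genes in the c-Myc-high and 140 in the c-Myc-low comparison of sites, and 2 kallikrein-related peptidases in each.

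The log2 ratio of mean summed members, metastatic c-Myc-high over c-Myc-low, was 11.18, and 10.52 to 11.76 when 1 library was left out. With replicate 2 as the sole library of its group, an alternative added after seeing the data, it was 6.47. Over primary c-Myc-high cells the ratio was 7.47, 6.52 to 11.33 with 1 library left out (11.33 without primary c-Myc-high replicate 2), and 2.76 with metastatic replicate 2 alone. RPKM gave 10.72 and 8.22, and TMM library sizes 11.89 and 7.08. These ratios kept their sign in each of these alternatives. The members were chosen for high values in metastatic c-Myc-high libraries, so nothing is read from that sign. Limma on log2(RPKM + 1) called 0 kallikrein-related peptidases lower in the c-Myc-high and 2 in the c-Myc-low class, and DESeq2 and the fit of the 2 groups alone called 8 in the c-Myc-low class.

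Members below the floor of 3 counts, which includes all 10 in both primary c-Myc-low libraries, were not detectable at this depth.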
